A study of Homo sapiens with 9 samples.

Results

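The SEC61 channel and the translocon-associated protein (TRAP) complex form the core of the entry gate of the endoplasmic reticulum (ER) for new secretory and membrane proteins. The 10 genes described here were taken by name, without a threshold on their values but with earlier results of these data known: SEC61A1, SEC61A2, SEC61B and SEC61G for the channel, SEC62 and SEC63 for the proteins that assist it after translation, and SSR1, SSR2, SSR3 and SSR4 for TRAP. All 10 were found among the 59293 genes summed from the deposited tables. All 10 also passed the filter on low counts, among 15139 genes tested. They were measured by RNA-seq in MCF10A-YAP cells, a breast epithelial line (MCF10A) that overexpresses constitutively active YAP, a coactivator of transcription, in every group alike. The cells received by transduction a vector for the guide RNA TRAM2-KO1, for TRAM2-KO2, or for a non-targeting control, and antibiotic selection followed. Each group had 3 libraries, lettered A, B and C. The labels do not describe the cells as clones, and no age or time point is given. TRAM2 encodes a membrane protein that sits beside the SEC61 channel, so the comparisons ask whether the messages of the channel and of TRAP differed where TRAM2 was targeted.

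As background, a ribosome that makes a secretory protein is brought to the membrane by the signal recognition particle and docks on SEC61, a heterotrimer. Its alpha subunit, encoded by SEC61A1 or by the paralog SEC61A2, forms the pore, and the small beta and gamma subunits, encoded by SEC61B and SEC61G, sit around it. SEC62 and SEC63 help small or already finished proteins through the channel, SEC63 by recruiting the lumenal chaperone BiP through its J domain. TRAP, with its alpha, beta, gamma and delta subunits encoded by SSR1, SSR2, SSR3 and SSR4, binds the channel and helps clients with weak signal sequences. Several of these genes are known targets of the unfolded protein response.

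Both guides lie within TRAM2, on chromosome 6 of GRCh37, and are shown because they define the groups. Read as DNA, 5′ to 3′, and without the neighbouring bases, they are as follows, in lower case throughout.
TRAM2-KO1: atgctccagctatatgcacc
TRAM2-KO2: gtcaacagaatactcacggg
The TRAM2-KO1 guide matched bases 52372361 to 52372380, all 20 of them in exon 7 of the 11 exons of TRAM2-201. The TRAM2-KO2 guide matched bases 52374309 to 52374328, of which 3 lay in exon 5 and the rest in the adjoining intron. Both matched the plus strand, while TRAM2 runs on the minus strand.

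The targeted gene had 219, 210 and 203 CPM (counts scaled to a common depth, on the library sizes that edgeR's TMM method gives) in the TRAM2-KO1 libraries and 216, 212 and 210 CPM in the TRAM2-KO2 libraries, against 481, 464 and 475 CPM in control. All 6 libraries with a TRAM2 guide were below all 3 control libraries. The log2 fold change was -1.17 (SE 0.0326) with TRAM2-KO1 and -1.16 (SE 0.0325) with TRAM2-KO2, with adjusted p = 4.93e-08 and 4.70e-08 in edgeR's quasi-likelihood test. These are levels of message in bulk cultures, where fewer cells with the message and less message per cell cannot be told apart. The library totals ran from 2.17e+07 to 2.76e+07 estimated reads. Libraries B and C of TRAM2-KO1 stood apart from the others by base composition: the Spearman correlation over genes between a library's deviation from the mean and GC content was -0.528 and -0.358 in them, against 0.182 in library A of TRAM2-KO1, -0.09 to 0.396 in TRAM2-KO2 and 0.143 to 0.252 in control. Of 12 epithelial markers, 11 had at least 10 reads in every library, all but TP63. Their summed level was 5334 to 5499 TPM in TRAM2-KO1, 6170 to 6185 TPM in TRAM2-KO2 and 5769 to 5877 TPM in control. The 8 fibroblast markers summed to 86.4 to 103 TPM in TRAM2-KO1, 96.4 to 98.2 TPM in TRAM2-KO2 and 107 to 128 TPM in control, most of it FAP. The 6 leukocyte and endothelial markers found summed to at most 0.0472 TPM in TRAM2-KO1, 0.487 TPM in TRAM2-KO2 and 0.540 TPM in control. The part of these differences in the results on the SEC61 and TRAP genes was not tested, apart from GC content, for which values follow.

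Levels can be compared between genes in TPM, the usual length-scaled abundance, which divides reads by effective transcript length. As deposited, this is the length less 249 nt for long transcripts, so TPM raises short transcripts more than plain length would. By TPM summed over all transcripts of a gene, SSR3, the gamma subunit of TRAP, and SEC61G, the gamma subunit of the channel, were highest of the 10. SSR3 averaged 609 ± 22.8 TPM in TRAM2-KO1, 562 ± 22.7 TPM in TRAM2-KO2 and 568 ± 5.05 TPM in control (SD, n = 3 each). SEC61G averaged 569 ± 46.6 TPM in TRAM2-KO1, 509 ± 31.0 TPM in TRAM2-KO2 and 493 ± 20.9 TPM in control. SSR3 was above SEC61G within each of the 9 libraries, while the ranges of the 2 genes overlapped in TRAM2-KO1 and in no other group. In control, SEC61A1 followed with 270 ± 5.29 TPM and SEC61B with 247 ± 2.45 TPM, then SSR2 with 201 ± 5.97 TPM, SSR1 with 161 ± 8.08 TPM, SSR4 with 136 ± 6.74 TPM, SEC62 with 126 ± 2.71 TPM and SEC63 with 108 ± 4.96 TPM. No neighbours in this order overlapped in the 3 control libraries. SEC61A1 and SEC61B overlapped in TRAM2-KO2, and SSR4 and SEC62 overlapped with both guides. The lowest was SEC61A2, with 9.71 ± 1.54 TPM in TRAM2-KO1, 8.83 ± 1.02 TPM in TRAM2-KO2 and 7.28 ± 0.979 TPM in control.

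**Figure D1:**
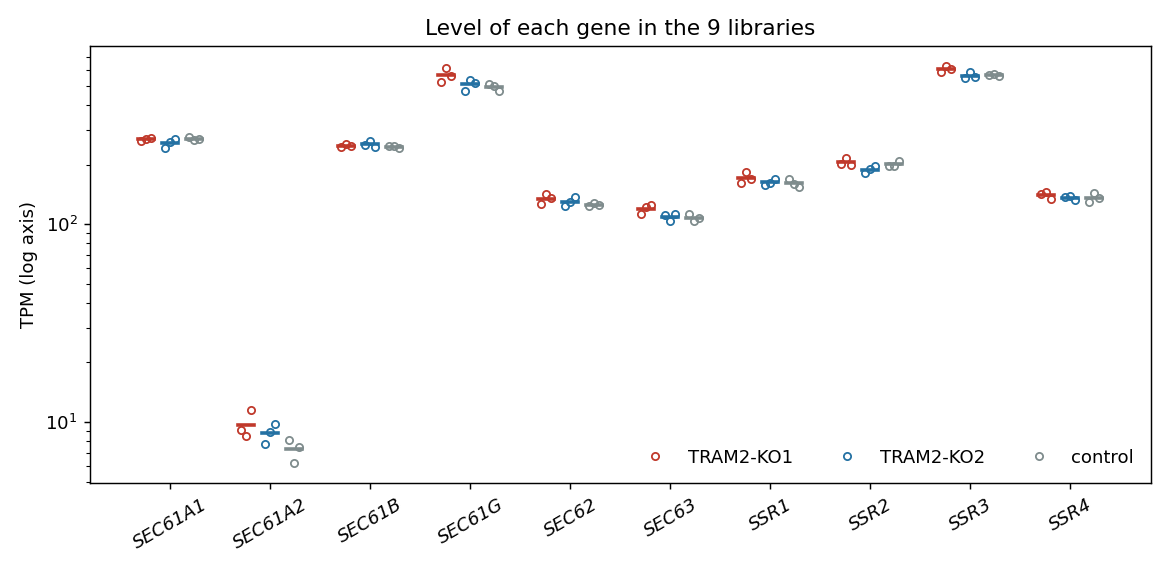
TPM on a log axis for each of the 10 genes, with 1 open point per library and a bar at the mean of the 3 libraries of TRAM2-KO1, TRAM2-KO2 and control. SEC61A2 lies between 6.21 and 11.5 TPM, and every other gene lies at 103 TPM or more in all 9 libraries.

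The subunits of a complex were not at equal levels. SEC61G had 2.28 ± 0.140 times the TPM of SEC61B in TRAM2-KO1, 2.01 ± 0.108 times in TRAM2-KO2 and 2.0 ± 0.065 times in control. SEC61A1 and SEC61B, which encode partners in the same heterotrimer, were close to each other, with a ratio of 1.08 ± 0.0242 in TRAM2-KO1, 1.02 ± 0.0653 in TRAM2-KO2 and 1.09 ± 0.0197 in control. Of the message for the pore subunit, SEC61A2 supplied 3.48 ± 0.488% in TRAM2-KO1, 3.30 ± 0.212% in TRAM2-KO2 and 2.62 ± 0.30% in control. Within TRAP, SSR3 had 4.35 ± 0.206 times the TPM of SSR4 in TRAM2-KO1, 4.13 ± 0.114 times in TRAM2-KO2 and 4.18 ± 0.196 times in control. Summed over subunits, TRAP stood at 1.03 ± 0.0185 times the heterotrimer in TRAM2-KO1, 1.02 ± 0.0228 times in TRAM2-KO2 and 1.05 ± 0.0234 times in control. The message of TRAM2 stood at 12.6 ± 0.711% of that of SEC61A1 in TRAM2-KO1 and 13.6 ± 0.603% in TRAM2-KO2, against 28.5 ± 0.458% in control. TRAM1, the better known paralog of TRAM2 at the channel, stood at 171 ± 5.80% of SEC61A1 in TRAM2-KO1, 158 ± 2.65% in TRAM2-KO2 and 159 ± 6.10% in control.

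These levels depend on which transcripts are counted, because TPM gives weight to short ones. For SEC62, a retained-intron transcript of 525 nt, SEC62-210, held on average 53.7% of the TPM of the gene but 10.6% of its estimated reads, while the full-length coding transcript SEC62-201 of 6526 nt held 14.2% of the TPM and 63.8% of the reads. SEC63 had the same form: its retained-intron transcripts SEC63-210 and SEC63-208 held 27.7% and 24.7% of the TPM, and the 6430-nt coding SEC63-201 held 14.1% of the TPM and 65.2% of the reads. For SSR1, the 570-nt SSR1-208, with no coding sequence defined, held 33.8% of the TPM. For SEC61A1, the 521-nt SEC61A1-204 held 33.7% of the TPM but 4.41% of the reads, and the 3568-nt SEC61A1-201 held 55.0% and 87.3%. The rank of SEC61A1 and the ratios to it given above include SEC61A1-204. Both transcripts are of coding type, so values over coding transcripts alone include it too. In control SEC61A1-201 by itself averaged 146 TPM, against 247 TPM for SEC61B. For SSR3, the 3716-nt SSR3-201 held 38.4% of the TPM and 82.3% of the reads. The 579-nt SSR3-208 held 26.0% and 5.30%, and the 533-nt SSR3-203, with no coding sequence defined, 13.4% and 2.37%. The rank of SSR3 and its ratio to SSR4 given above include these short transcripts. In control SSR3-201 by itself averaged 215 TPM. Over transcripts of protein-coding type alone, SEC62 averaged 60.6 TPM in TRAM2-KO1, 57.1 TPM in TRAM2-KO2 and 54.9 TPM in control, SEC63 averaged 40.3, 36.6 and 37.6 TPM in the same groups, and SSR1 averaged 92.9, 89.1 and 85.3 TPM. SEC61G then stood first in each group, at 569 TPM in TRAM2-KO1, 508 TPM in TRAM2-KO2 and 492 TPM in control, with libraries that overlapped those of SSR3.

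The split between transcripts was steady in some genes and not in others. SSR2 kept 52.5 ± 0.717% of its TPM on SSR2-201 in TRAM2-KO1, 52.3 ± 3.33% in TRAM2-KO2 and 53.4 ± 1.16% in control. SEC61A1, which encodes the main pore subunit, had 52.9 ± 1.74% on SEC61A1-201 in TRAM2-KO1, 58.2 ± 4.27% in TRAM2-KO2 and 53.9 ± 1.38% in control. For SEC61A2 the share on SEC61A2-205 was 43.9 ± 18.4% in TRAM2-KO1, 56.9 ± 8.60% in TRAM2-KO2 and 69.1 ± 10.1% in control. For SSR4, the delta subunit of TRAP, the share on SSR4-204 was 41.2 ± 14.8% in TRAM2-KO1, 58.7 ± 6.86% in TRAM2-KO2 and 59.4 ± 7.87% in control. In both genes the libraries of TRAM2-KO1 ranged widely and overlapped those of control. Of the copies and antisense or divergent genes that bear the members' names, the most abundant by reads was the pseudogene SSR4P1, at 0.553 to 1.67 TPM, and the divergent transcript SEC61G-DT had at most 3 reads in any library.

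Against control, the pore and its beta subunit did not pass the test with either guide, within narrow intervals. SEC61A1 had 505, 497 and 495 CPM in TRAM2-KO1 and 509, 510 and 488 CPM in TRAM2-KO2, against 507, 507 and 493 CPM in control. The groups overlapped throughout. Its log2 fold change was -0.01 (95% interval -0.07 to 0.05) with TRAM2-KO1 and 0.00 (-0.06 to 0.06) with TRAM2-KO2, and the bounds of both intervals, as changes in level, lie between -4.68% and 4.34%. SEC61B had 74.1 to 74.8 CPM in TRAM2-KO1 and 71.1 to 75.4 CPM in TRAM2-KO2, against 71.3 to 74.1 CPM in control. Its log2 fold change was 0.03 (-0.05 to 0.10) with TRAM2-KO1 and 0.01 (-0.06 to 0.09) with TRAM2-KO2. A miss of the threshold does not show that the groups are equal, but no bound of these intervals lies beyond 7.22%.

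SEC62, which assists translocation after translation and lies on chromosome 3 of GRCh37 at 169684423 to 169716161, was the member that rose with TRAM2-KO1. It had 171, 182 and 175 CPM in TRAM2-KO1 and 155, 165 and 167 CPM in TRAM2-KO2, against 156, 158 and 155 CPM in control. All 3 TRAM2-KO1 libraries were above all control libraries, while 1 of the 3 TRAM2-KO2 libraries was below them. The log2 fold change with TRAM2-KO1 was 0.17 (SE 0.0362, 95% interval 0.09 to 0.25), a rise of 12.6%, with adjusted p = 0.0319 in edgeR's test. With TRAM2-KO2 it was 0.05 (-0.03 to 0.13), with adjusted p = 0.593. The rise passed in 8 of 13 other settings, with adjusted p = 0.00256 to 0.523, and in 3 of 9 fits that left out 1 library, with adjusted p = 0.0116 to 0.151. Without any 1 of the control libraries, without library B or C of TRAM2-KO1, or without library B of TRAM2-KO2, it no longer passed.

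SEC62 was the only 1 of the 10 members past the test with TRAM2-KO1, beside 2.91% of all genes tested, and none passed with a log2 change beyond 0.5, beside 0.482% of all genes. SSR2 was the only 1 of 10 past the test with TRAM2-KO2, beside 4.22% of all genes, and none was beyond 0.5, beside 0.647%. With both guides combined 0 of 10 passed in edgeR's test, beside 3.84% of all genes, and 0 of 10 were beyond 0.5, beside 0.396%. At an unadjusted p under 0.05, 4 of 10 members, all higher, passed for both guides combined, beside 14.8% of all genes. DESeq2 called 1 of 10, SEC62, at adjusted p = 0.0453, beside 5.37% of the genes to which it gave an adjusted p. The smallest adjusted p of the 10 in edgeR's fit was that of SEC62, with a log2 fold change of 0.11 (0.04 to 0.18) and adjusted p = 0.0955.

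**Figure D2:**
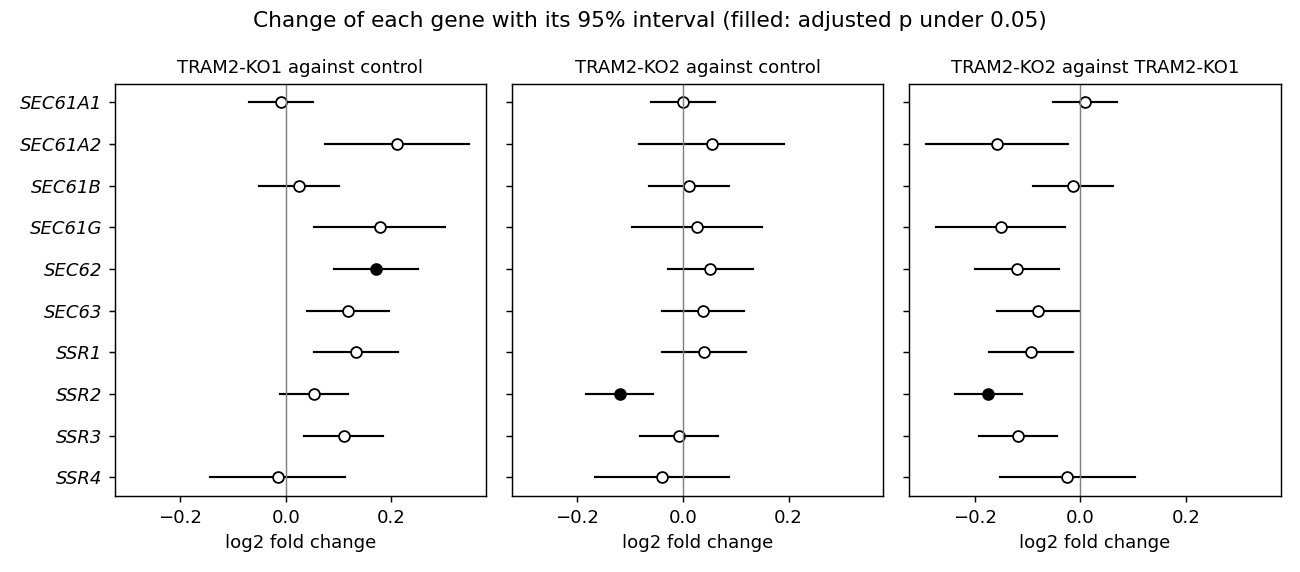
Log2 fold change of each of the 10 genes with its 95% interval, for each TRAM2 guide set against control and for TRAM2-KO2 set against TRAM2-KO1. Filled points passed an adjusted p of 0.05 in edgeR's test, which are SEC62 with TRAM2-KO1 at 0.17, SSR2 with TRAM2-KO2 at -0.12 and SSR2 between the guides at -0.17.

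Beyond SEC62, several members were higher in all TRAM2-KO1 libraries without passing edgeR's test. DESeq2 called 3 of 10 with TRAM2-KO1, all higher, SEC62, SSR1 (adjusted p = 0.0209) and SSR3 (adjusted p = 0.0267), beside 6.11% of genes. In 7 of the 10, namely SEC61A2, SEC61G, SEC62, SEC63, SSR1, SSR2 and SSR3, every TRAM2-KO1 library was above every control library, beside 11.9% of all genes. The median log2 fold change of the 10 with TRAM2-KO1 was 0.11, beside 0.01 over all genes tested. SEC61G had 115, 134 and 119 CPM in TRAM2-KO1 and 110, 113 and 108 CPM in TRAM2-KO2, against 114, 108 and 104 CPM in control. Its log2 fold change with TRAM2-KO1 was 0.18 (0.05 to 0.30), with adjusted p = 0.133. Library B of TRAM2-KO1 was the highest of the 9, and library A lay just above the highest control library. SSR3 had 863, 937 and 876 CPM in TRAM2-KO1 and 817, 836 and 814 CPM in TRAM2-KO2, against 841, 828 and 812 CPM in control. Its log2 fold change with TRAM2-KO1 was 0.11 (0.04 to 0.18), with adjusted p = 0.124. SSR1 had 0.13 (0.05 to 0.21) and SEC63 had 0.12 (0.04 to 0.20), with adjusted p = 0.0867 and 0.115. SEC61A2 had 12.5, 12.7 and 13.3 CPM in TRAM2-KO1, against 11.5, 10.7 and 11 CPM in control. Its log2 fold change with TRAM2-KO1 was 0.21 (0.07 to 0.35), with adjusted p = 0.108. SSR4 was not among the 7, with 62.4, 57.2 and 56.1 CPM in TRAM2-KO1 against 56.6, 62.1 and 59.0 CPM in control.

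The members that were higher with TRAM2-KO1 were mostly those poor in G and C. Across all genes tested, the Spearman correlation between GC content and the log2 fold change was -0.414 with TRAM2-KO1 and -0.00648 with TRAM2-KO2. Over the 10 members it was -0.770 with TRAM2-KO1 and -0.467 with TRAM2-KO2, as a description of genes that share the same libraries. The 5 members of lowest GC content, SEC61G, SEC62, SSR3, SEC63 and SSR1, had 36.1% to 40.6%. Their median log2 fold change with TRAM2-KO1 was 0.13, beside 0.05 for the 2515 genes tested in that range of GC content. SEC61A1 had 53.3% and SSR4 60.8%. With the trend of GC content taken out of each library, the median of the 10 with TRAM2-KO1 was 0.06. SEC62 then had 0.10 with adjusted p = 0.0590 in edgeR's test. In that fit 0 of 10 passed, beside 540 of the 15139 genes tested. The members above all control libraries were then 4 of 10, SEC61A2, SEC62, SSR1 and SSR4, beside 7.70% of all genes. With TRAM2-KO2, SEC62 was then the 1 member above all control libraries, beside 12% of all genes. The same held with both guides combined, beside 3.32%. The margin was narrow: less the control mean on the log2 scale, SEC62 had 0.0182 in library A of TRAM2-KO2 and 0.0175 in control B.

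**Figure D3:**
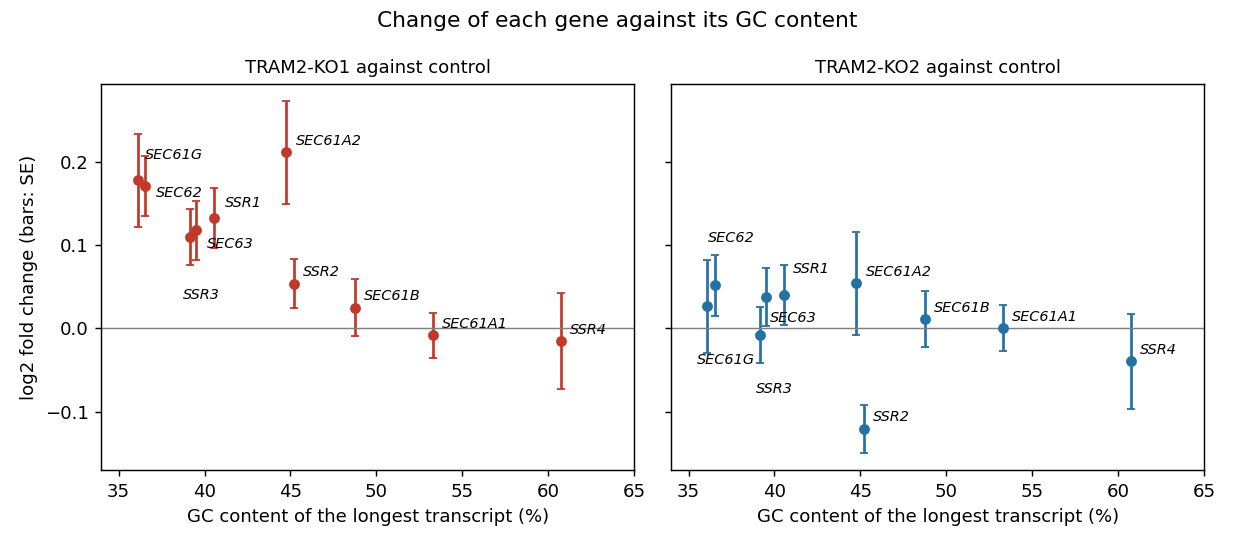
Log2 fold change of each of the 10 genes, with its SE, against the GC content of its longest transcript, with TRAM2-KO1 and with TRAM2-KO2, each against control. With TRAM2-KO1 the 5 genes under 41% GC lie between 0.11 and 0.18 and SEC61A1 and SSR4, the most GC-rich, at -0.01 and -0.02, and with TRAM2-KO2 all but SSR2 lie between -0.04 and 0.05.

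Library A of TRAM2-KO1, which did not share the GC trend of B and C, gave SEC62 a log2 fold change of 0.13 on its own (adjusted p = 0.458, where its spread was taken from the other groups). Without library A, 5 of 10 members passed with TRAM2-KO1, namely SEC61G, SEC62, SEC63, SSR1 and SSR3, all higher. In that fit 1952 of the 15410 genes tested passed, against 440 of 15139 with all 9 libraries.

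SSR2, the beta subunit of TRAP, encoded on chromosome 1 of GRCh37 at 155978839 to 155990742, was the member that fell with TRAM2-KO2. It had 125, 125 and 128 CPM in TRAM2-KO2, against 137, 138 and 136 CPM in control. All TRAM2-KO2 libraries were below all control libraries, and SSR2 was the 1 of 10 members of which this held, beside 12.3% of all genes. Its log2 fold change was -0.12 (SE 0.0289, 95% interval -0.18 to -0.06), so that the level fell by 7.99%, with adjusted p = 0.0449 in edgeR's test. The fall passed in 6 of 12 other settings, with adjusted p = 0.0168 to 0.614, and in 2 of 9 fits that left out 1 library, with adjusted p = 0.0256 to 0.168. Without any 1 of the control libraries, any 1 of the TRAM2-KO2 libraries, or library C of TRAM2-KO1, it no longer passed. With the GC trend removed, SSR2 was again the 1 member below all control libraries, beside 13.3% of all genes.

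With TRAM2-KO1 the same gene had 141, 146 and 140 CPM, above control in all libraries, beside 11.9% of all genes. Its log2 fold change was 0.05 (-0.01 to 0.12), with adjusted p = 0.349 in edgeR's test. With the GC trend removed, these libraries overlapped control. Less the control mean on the log2 scale, SSR2 then had 0.040, 0.0001 and -0.030 in TRAM2-KO1 and -0.018 to 0.016 in control. Set against each other, TRAM2-KO2 and TRAM2-KO1 differed by -0.17 on the log2 scale (SE 0.0288, 95% interval -0.24 to -0.11), with adjusted p = 0.0144. SSR2 was the 1 of 10 members past the test between the guides, beside 2.27% of all genes, and 0 of 10 were beyond 0.5, beside 0.476%. This difference passed in 9 of 13 other settings, with adjusted p = 0.000445 to 0.362, and in 7 of 9 fits that left out 1 library, with adjusted p = 0.00835 to 0.0915. It no longer passed without library A of TRAM2-KO2 (adjusted p = 0.0671) or without library B (adjusted p = 0.0915). Without library A of TRAM2-KO1, 5 of 10 members passed between the guides, SEC61G, SEC62, SSR1, SSR2 and SSR3. In that fit 1828 of the 15410 genes tested passed. With library A alone for TRAM2-KO1, the difference was -0.15, with adjusted p = 0.146. In TPM, SSR2 averaged 189 ± 7.32 in TRAM2-KO2, 206 ± 9.43 in TRAM2-KO1 and 201 ± 5.97 in control. On this scale the highest TRAM2-KO2 library, at 196 TPM, was just below the lowest control library, at 197 TPM.

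**Figure D4:**
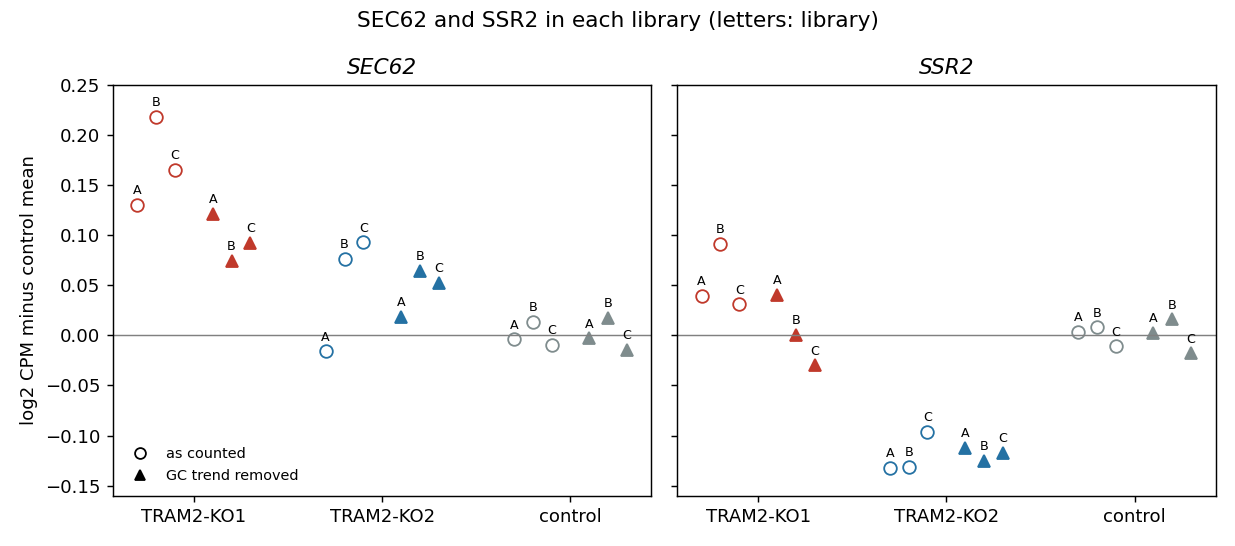
Log2 CPM of SEC62 and SSR2 in each library of TRAM2-KO1, TRAM2-KO2 and control, less the mean of the control libraries, as counted (open circles) and with each library's GC trend taken out (filled triangles). SEC62 in TRAM2-KO1 lies at 0.13 to 0.22 as counted and 0.07 to 0.12 with the trend removed, and SSR2 in TRAM2-KO2 lies at -0.13 to -0.10 and -0.12 to -0.11.

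Between the guides, 9 of 10 members had a lower estimate in TRAM2-KO2 than in TRAM2-KO1, with a median of -0.10 beside -0.01 over all genes. In 5 of 10, namely SEC61A2, SEC61G, SEC62, SSR2 and SSR3, every TRAM2-KO2 library was below every TRAM2-KO1 library, beside 11.9% of all genes. With the GC trend removed the median was -0.05, and 4 of 10 did not overlap in this direction, SEC61G, SEC62, SSR2 and SSR4, beside 8.94% of all genes. Other than SSR2, the smallest adjusted p between the guides in edgeR was 0.102, for SSR3, with a difference of -0.12 (-0.19 to -0.04). DESeq2 called SSR3 as well as SSR2 between the guides, at -0.11 with adjusted p = 0.0236, and these 2 of 10 stand beside 5.17% of genes. SEC61A1 differed by 0.01 (-0.05 to 0.07). TRAM2 differed by 0.01 (-0.06 to 0.08).

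With TRAM2-KO2 against control, the other members were near 0. The estimates ran from -0.04 for SSR4 (-0.17 to 0.09) to 0.05 for SEC61A2 (-0.08 to 0.19), and the median of the 10 was 0.02 beside -0.003 over all genes. SSR3 had -0.01 (-0.08 to 0.07), SEC61G had 0.03 (-0.10 to 0.15), SSR1 had 0.04 (-0.04 to 0.12) and SEC63 had 0.04 (-0.04 to 0.12).

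How the members varied together over the 9 libraries is given as a description, since they share libraries, depth and base composition. The highest Pearson correlation of log2 CPM was 0.970, between SEC61G and SSR3, the gamma subunits of the channel and of TRAP. SEC61G and SSR1 had 0.950, SSR1 and SSR3 had 0.934, and SEC62 and SSR1 had 0.919. As counted, SEC61A1 varied apart from these, with 0.761 to SEC61B, 0.0151 to SEC61G and -0.352 to SEC62. With the GC trend removed, SEC61A1 had 0.535 to SEC61G, 0.663 to SSR3, 0.499 to SSR1 and 0.111 to SEC62. With the GC trend removed, SEC61G and SSR3 had 0.881, SEC61A1 and SEC61B had 0.804, and SEC62 and SSR1 had 0.697, while SEC62 and SSR3 had 0.454, against 0.848 as counted. Among 10645 genes of at least 5 CPM, those most like SEC61A1 over the 9 libraries were PAGR1 with 0.938, DCPS with 0.926, DHRS13 with 0.903, UBL4A with 0.896 and ATXN7L3 with 0.896.

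Promoter windows from RefSeq on GRCh38.p14, each 250 bases before to 50 after a start, were found for all 10 genes and searched on both strands for elements of the unfolded protein response. The ER stress element ERSE, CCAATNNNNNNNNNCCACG, was in none of the members' windows and in those of 0.0916% of 27305 genes (35116 windows). ERSE-II, ATTGGNCCACG, was in none of them and in those of 0.0696% of genes. The core of the unfolded protein response element, TGACGTGG, was in windows of 3 members, SEC62, SSR3 and SSR4, beside 0.927% of genes. In each it lay on the opposite strand and reads as its reverse complement in the sequence shown. It lay 17 bases before the start of its window in SEC62, 41 before in SSR3 and 129 before in SSR4. The SSR3 window with the match, 156554076 to 156554375, lies downstream of its windows at 156554796 to 156555095 and 156555068 to 156555367, which had none. The SSR4 match lay in the window at 153794418 to 153794717, and the window at 153794199 to 153794498 had none. Which starts these cells use was not tested. CCAAT alone was in windows of 6 of the 10 members, beside 39.7% of genes, and CCACG, the other part of these elements, in windows of 9, beside 42.1% of genes. A match is a description of letters only. The stretches of SEC62 and SSR2, the members that passed a test, are the 250 bases before the start, and those of SSR3 and SSR4 are 30 bases around the match. Capitals mark the match to the core in SEC62, SSR3 and SSR4, and in SSR2 a CCAAT on the opposite strand and a CCACG.
SEC62, chr3:169966557-169966806, plus strand: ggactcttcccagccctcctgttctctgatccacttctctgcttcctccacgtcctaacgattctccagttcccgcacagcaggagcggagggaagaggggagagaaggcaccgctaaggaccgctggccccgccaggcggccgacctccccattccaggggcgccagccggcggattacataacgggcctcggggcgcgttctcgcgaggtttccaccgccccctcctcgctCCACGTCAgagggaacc
SSR2, chr1:156020952-156021201, minus strand: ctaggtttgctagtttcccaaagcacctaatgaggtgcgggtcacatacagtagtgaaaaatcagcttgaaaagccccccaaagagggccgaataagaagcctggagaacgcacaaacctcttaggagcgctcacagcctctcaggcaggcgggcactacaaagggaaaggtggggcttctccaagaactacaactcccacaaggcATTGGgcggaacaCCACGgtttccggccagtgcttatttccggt
SSR3, chr3:156554148-156554177, minus strand: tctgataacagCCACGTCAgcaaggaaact
SSR4, chrX:153794528-153794557, plus strand: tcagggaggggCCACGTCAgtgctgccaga

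Among the factors of the unfolded protein response, 0 rose and 1 fell of 8 measured with both guides combined in edgeR's test, beside 3.84% of all genes in either direction. The one that fell was CREB3L2, an ER-bound transcription factor, by 0.14 on the log2 scale (adjusted p = 0.0193). The sensors ATF6, ATF6B and EIF2AK3 had log2 fold changes of -0.11, -0.14 and -0.08, with adjusted p = 0.197, 0.191 and 0.433. At an unadjusted p under 0.05, 3 of the 8 passed, all lower, beside 14.8% of all genes, and DESeq2 called CREB3L2 alone. The median of the 8 was -0.08, beside -0.003 over all genes.

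In the lumenal BiP system, which works with SEC63, 0 rose and 3 fell of 9 with both guides combined, beside 3.84% of all genes, with a median of -0.15. At an unadjusted p under 0.05, 6 of the 9 were lower and 1 higher, beside 14.8% of all genes. HYOU1, the exchange factor of BiP, had 149, 147 and 149 CPM in TRAM2-KO1 and 160, 156 and 157 CPM in TRAM2-KO2, against 206, 205 and 202 CPM in control. All 6 libraries with a guide were below control, and the fall for both guides combined was 0.42 on the log2 scale (adjusted p = 4.21e-06). HSPA5, which encodes BiP itself, had 573, 590 and 577 CPM in TRAM2-KO1 and 554, 547 and 550 CPM in TRAM2-KO2, against 670, 673 and 648 CPM in control. It fell by 0.23 (adjusted p = 0.000171). DNAJC10, an ER disulfide reductase with a J domain, fell by 0.15 (adjusted p = 0.00945). DNAJC3 had -0.11 with adjusted p = 0.0655, and DESeq2 called it along with these 3.

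The other lists of the pathway are given for both guides combined, each count beside 3.84% of all genes in edgeR and 5.37% in DESeq2. Of 13 translocon partners measured, 0 rose and 3 fell, TRAM2 itself and NOMO1 and NOMO3, with a median of -0.01. NOMO1 had a log2 fold change of -0.30 (adjusted p = 0.00172) and NOMO3 of -0.40 (adjusted p = 0.00397). NOMO1, NOMO2 and NOMO3 are near-identical copies between which reads are divided by estimate, so their single values are uncertain. DESeq2 called TRAM2, NOMO1, NOMO3 and NCLN, of which NCLN had -0.26 in edgeR with adjusted p = 0.162. With TRAM2-KO1 against control, 1 of the 13 rose and 3 fell in edgeR, beside 2.91% of all genes. DESeq2 called 5 of the 13 there, with TRAM1 as the 1 higher, beside 6.11% of genes. Of 12 oligosaccharyltransferase genes 2 rose and 2 fell, with a median of 0.02. DESeq2 called 6 of the 12, 2 higher and 4 lower, these 4 and STT3A and RPN2. TUSC3, an oxidoreductase subunit, rose by 0.23 (adjusted p = 0.00161), STT3B, a catalytic subunit, fell by 0.12 (adjusted p = 0.0142) and RPN1 fell by 0.10 (adjusted p = 0.0415). MAGT1, the counterpart of TUSC3, had 692, 657 and 585 estimated reads in TRAM2-KO1 and 173, 865 and 975 such reads in TRAM2-KO2, against 1, 1 and 3 in control. No fold is given for MAGT1 against so few reads, and the estimate that divides reads among transcripts was not tested as a source of this gap. Of 8 genes of the signal recognition particle and its receptor, 0 passed this test or that of DESeq2 and 1 had an unadjusted p under 0.05, while SRPRB, the beta subunit of the receptor, rose with TRAM2-KO1 by 0.18 (adjusted p = 0.0236). Of 5 signal peptidase genes 0 passed in edgeR, in DESeq2 or at an unadjusted p under 0.05, and the closest was SPCS2, with 0.04 and adjusted p = 0.708. Of 15 genes of the EMC and GET routes, which insert membrane proteins without SEC61, 0 rose and 1 fell, in edgeR and in DESeq2 alike. That gene was EMC1, with 113, 114 and 113 CPM in TRAM2-KO1 and 119, 123 and 122 CPM in TRAM2-KO2, against 158, 156 and 161 CPM in control. It fell by 0.43 (adjusted p = 4.31e-06).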

How the data were processed

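Libraries of MCF10A-YAP cells, 9 in all and 3 per group, were sequenced. Per the study's methods, the authors removed adapters by cutadapt and estimated transcript abundance by Salmon; versions, transcript release and genome build were not given in the sources used here. The estimated counts deposited by the authors are Salmon's reads per transcript, without normalization. The TPM values deposited by the authors are scaled within each library. Effective length, as deposited, is the transcript length less 249 nt for long transcripts. The deposited TPM values already rest on it, and beyond TPM it served for length offsets alone.

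Counts were added up by gene through the GENCODE v44 annotation lifted to GRCh37 (220336 of 226030 transcripts matched, 98.4% to 98.5% of reads) and rounded. After filterByExpr (minimum count 10), 15139 genes were tested in edgeR 4.0.16 (R 4.3.3), with TMM factors, 1 quasi-likelihood fit of all 9 libraries and 4 contrasts. Two-sided p values were adjusted (Benjamini-Hochberg, all 15139 genes), with limits of 0.05 and, for the log2 fold change, 0.5. Log2 CPM used a prior count of 2. The common biological coefficient of variation was 5.86%. Because nothing in the sample labels says how far cultures of a group were kept apart, p values measure the spread between these libraries. The alternatives were other scaling factors, DESeq2 1.42.0, other filters, length offsets, coding transcripts alone, removal of the GC trend (lowess span 0.3), a replicate block, fewer groups, limma 3.58.1 on log2(TPM + 1), library A alone for TRAM2-KO1, and each library left out.

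The members and gene lists were chosen with earlier results of these data known. The text names all 10 members, TRAM2, of each other list up to 4 genes with the smallest p for both guides together, and the 5 genes of at least 5 CPM most like SEC61A1. Beyond this rule it names TRAM1, for its level and a DESeq2 call, and STT3A and RPN2, which DESeq2 called. Some markers, copies and divergent transcripts are named as well. Promoters are RefSeq windows on GRCh38.p14. The guides came from the study's oligonucleotide table. Groups were taken from the sample labels, with which the series design text conflicts. Identity between the SEC61A1 and SEC61A2 proteins was not analysed here.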

Additional observations from a re-analysis of the deposited data

Results flagged for a closer look

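In edgeR's fit of all 9 libraries, the 2 guides against TRAM2 differed in 1 of 10 members, beside 2.27% of all genes. DESeq2 called 2 of 10, beside 5.17% of genes, and with each library left out edgeR's count ran from 0 to 5. SSR2, which encodes the beta subunit of TRAP, was lower with TRAM2-KO2 than with TRAM2-KO1, with a log2 difference of -0.174, with adjusted p = 0.0144 in edgeR's test of the difference itself. All 3 TRAM2-KO2 libraries, at 125 to 128 CPM, were below all 3 TRAM2-KO1 libraries, at 140 to 146 CPM, which held for 11.9% of all genes. TRAM2 itself differed by 0.01 between the guides.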

How the results depend on the processing

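Most values of the members kept their direction and their side of the threshold under the alternatives. The exceptions were the calls of SEC62 and SSR2, calls gained by SSR1 and SSR3 (DESeq2), SEC61G (no filter) and SEC61G, SEC63, SSR1 and SSR3 (without library A of TRAM2-KO1), and the changes of sign listed here for SEC61A1, SEC61B, SEC61G, SSR3, SSR4 and TRAM2 (between the guides). The members past the test with TRAM2-KO1 numbered 1 in the fit reported, 3 with DESeq2, 2 with no filter (SEC61G added), and 0 with length offsets, with the GC trend removed with or without the replicate block, with limma on log2(TPM + 1) and with library A alone for TRAM2-KO1. With TRAM2-KO2 they numbered 1, and 0 with RLE factors, no filter, length offsets, coding transcripts alone, the replicate block and limma. With both guides combined they numbered 0, and 1 with DESeq2. Between the guides they numbered 1, 2 with DESeq2, and 0 with length offsets, only the groups compared, limma, and library A alone for TRAM2-KO1. With each library left out in turn, the counts ran from 0 to 5 with TRAM2-KO1, 0 to 1 with TRAM2-KO2, 0 to 1 with both guides and 0 to 5 between the guides. Over all genes in these fits, 241 of 15455 to 1952 of 15410 passed with TRAM2-KO1 and 325 of 15455 to 771 of 15410 with TRAM2-KO2. With both guides it was 284 of 15455 to 1039 of 15410, and between the guides 114 of 15438 to 1828 of 15410. Library A alone for TRAM2-KO1 was assumed to vary like the libraries of the other groups. Over all genes with TRAM2-KO1, 725 of 31795 passed with no filter, 112 of 15139 with length offsets and 87 of 13781 with limma. With the GC trend removed it was 540 of 15139, and 489 of 15139 with the replicate block added. With TRAM2-KO2, 647 of 15139 passed with RLE factors, 667 of 31795 with no filter and 156 of 15139 with length offsets. For coding transcripts alone it was 448 of 12284, for the replicate block 568 of 15139 and for limma 119 of 13781. Between the guides 44 of 15139 passed with length offsets, 114 of 14816 with only the groups compared and 45 of 13781 with limma. The causes were not tested.

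The sign turned in these cases, all of them short of the threshold, and all values are log2 fold changes. SEC61A1 turned with TRAM2-KO2 to -0.0015 (upper-quartile factors), -0.079 (length offsets), -0.0016 (coding transcripts, GC trend removed, and the replicate block with it) and -0.067 (limma). It turned with TRAM2-KO1 to 0.0078 (length offsets) and 0.0042 (library A alone), with both guides to 0.0059 (no filter) and 0.0033 (library A alone), and between the guides to -0.087 (length offsets), -0.061 (limma) and -0.0017 (library A alone). SEC61B with the GC trend removed had -0.0082 with TRAM2-KO1, -0.00067 with both guides and 0.015 between the guides. With the replicate block added it had -0.0080, -0.00057 and 0.015. With limma it had 0.022 between the guides. SSR4 with TRAM2-KO1 had 0.054 (length offsets), 0.12 (GC trend removed, and 0.12 with the block), 0.040 (limma) and 0.072 (library A alone). With both guides it had 0.020 (length offsets), 0.041 (GC trend removed), 0.042 (with the block), 0.020 (limma) and 0.017 (library A alone). With coding transcripts alone it had 0.042 with TRAM2-KO2 and 0.22 between the guides. SSR3 with TRAM2-KO2 had 0.0040 with no filter. TRAM2 between the guides had -0.040 with library A alone.

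With each library left out, the sign also turned within these ranges: SEC61A1 -0.0091 to 0.021 with TRAM2-KO2, -0.018 to 0.0065 with both guides and -0.00079 to 0.029 between the guides, SEC61B -0.0057 to 0.036 with TRAM2-KO2 and -0.031 to 0.011 between the guides, SEC61G -0.0019 to 0.066 and SSR3 -0.017 to 0.0056 with TRAM2-KO2, SSR4 -0.064 to 0.012 with TRAM2-KO1, -0.086 to 0.00093 with TRAM2-KO2, -0.062 to 0.0039 with both guides and -0.071 to 0.024 between the guides, and TRAM2 -0.0037 to 0.041 between the guides.

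The labels do not say whether the letters A, B and C pair the libraries. Deviations of libraries with the same letter correlated at -0.0881 to 0.107, against -0.155 to 0.129 for other letters. These values show no sign of pairing but cannot exclude it, since deviations were taken from means of 3 libraries and carry each library's GC trend. With the replicate block, SSR2 with TRAM2-KO2 had adjusted p = 0.0753, and no other member's call changed. Depth limits SEC61A2 most, with 262 to 341 estimated reads per library, while the other 9 members each had at least 1239.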
